A study of Mus musculus with 6 samples.

Results

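The clustered protocadherin genes were analysed in embryonic mouse ovaries exposed to panobinostat (PB), an inhibitor of histone deacetylases. The members were all genes whose symbol names a numbered Pcdha, Pcdhac, Pcdhb, Pcdhga, Pcdhgb or Pcdhgc gene, and they numbered 58 of the 35974 gene names in the deposited annotation. There were 14 alpha, 22 beta and 22 gamma members. Strand-specific RNA sequencing of polyA RNA was performed on 3 control pools and 3 PB pools of ovaries collected on embryonic day E15.5 from the strain labelled C57Bl6j. The PB mothers were treated from E6.5 to E15.5 at 5 mg/kg, given by oral gavage. The labels state this dose per day and the study's methods state it for alternate days, and control mothers received DMSO and water. The labels name no transgene or deletion. Each pool held several ovaries, stated as 4 in the sample labels, as 6 to 8 in the series design and as a larger minimum in the study's methods for RNA sequencing, and the numbers of mothers and litters behind a pool are not given in the sources used here, so that p-values measure the spread between these pools.

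Clustered protocadherins are cadherin-like cell surface proteins. They bind the same isoform on a neighbouring cell, and in the nervous system each neuron expresses its own combination of them, which lets its branches recognise each other. In the alpha and gamma clusters every variable exon carries its own promoter and is spliced to constant exons shared by the whole cluster, whereas each beta gene is a single exon. Promoter choice depends on CTCF and cohesin, on DNA methylation and on repressive chromatin, and the C-type members at the ends of the alpha and gamma clusters are less subject to this choice than the other members.

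The deposited annotation (mm10) placed all members on the plus strand of chromosome 18, with the alpha cluster at 36930285 to 37187661, the beta cluster at 37264998 to 37521419 and the gamma cluster at 37661945 to 37841873. Each of the 58 members was represented by 1 annotated transcript. The alpha members had 4 exons, a variable exon of 2346 to 2562 bases and 2860 exon bases shared with the other alpha members, which amounted to 52.8% to 54.9% of their exon length. The gamma members also had 4 exons, and 41.7% to 47.2% of their exon bases were shared. The beta members shared no exon bases and were 2319 to 5271 bases long. StringTie, the assembler that produced the counts, held all alpha and gamma members in 1 locus and the beta members in 22 separate loci, so that the reads of the constant exons were divided among members by the program. The sums over a cluster do not depend on how reads are divided among its members, but they do depend on the reads given to read-through transcripts of the same locus, described with the alpha members.

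The variable exons were also compared with each other on the GENCODE M21 transcripts of the same assembly, in windows of 100 bases, the read length. A transcript was matched for 57 members, all but Pcdha10. Of the 13 alpha members compared, 11 had at least 1 window identical to another member, with a median of 5.08% of windows and a maximum of 11.1% in Pcdha11. In the beta cluster 13 of 22 members had such a window, with a maximum of 7.73% in Pcdhb21, whose shared windows were found in Pcdhb22. Some of the GENCODE exons compared were longer than the counted exons. Pcdhb21 had 4606 windows against 2712 counted bases, and Pcdhb14 had 8596 against 3438. Whether the shared windows lie in the counted bases was not tested. In the gamma cluster 8 of 22 members had one, 6 of them in the gamma-B group, with 9.69% of windows in Pcdhgb1 and 10.7% in Pcdhgb2, which matched each other, Pcdhgb4 and Pcdhgb8. A single read from such a window matches more than 1 member, although its mate in the read pair can fall in other sequence. How far the values of these members are affected was not tested.

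The 6 libraries held 97165644 to 125985399 transcript counts each, and levels are given as CPM, counts scaled to the library size. Markers of germ cells (Ddx4, Dazl and 4 others) summed to 567 to 763 CPM in control and 484 to 877 in PB pools, and markers of pregranulosa and supporting cells to 1333 to 1442 and 1279 to 1456 CPM, and both sums overlapped between groups. All 12 of these markers were above 3 counts in every pool, and Dppa3 (log2 fold change -0.52) and Amhr2 (-0.15, without overlap) had an unadjusted p under 0.05. Of the 13 markers of neurons and sympathetic ganglia, all 13 had a positive log2 fold change and 0 of them had an unadjusted p under 0.05. Their summed level was 26.3 to 37.1 CPM in control and 31.6 to 53.3 CPM in PB pools. Glial markers summed to 18.5 to 22.8 and 18.3 to 22.5 CPM, with 2 of 6 positive. Markers of interstitium, endothelium, mesonephros, Sertoli and Leydig cells, and adrenal overlapped in their sums. The 4 mesothelial markers summed to 205.9 to 274.3 CPM in control and 274.4 to 349.7 CPM in PB pools, without overlap. Of these, 1 (Lrrn4) had an unadjusted p under 0.05, with a log2 fold change of 0.63 and an adjusted p of 0.888 in edgeR. In DESeq2, the second count test used below, its adjusted p was 0.0116 at a log2 fold change of 0.62. Red blood cell markers reached 31394 CPM in the highest control pool and 14632 CPM in the lowest, against 17937 to 19751 CPM in PB pools. All 5 of them had a negative log2 fold change, and Hba-a2 (-0.77, without overlap) had an unadjusted p under 0.05. No neuronal or mesothelial marker was at or under 3 counts in every pool, and the part of these cells in the protocadherin values was not tested. In pooled tissue, fewer cells of a type and less RNA per cell cannot be told apart.

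Clustered protocadherin RNA in the E15.5 ovary was mainly gamma RNA. The gamma members summed to 361.5, 354.3 and 361.9 CPM in the 3 control pools and to 351.5, 376.7 and 333.2 CPM in the PB pools. The beta members summed to 52.8, 53.7 and 55.1 CPM in control and 50.5, 53.7 and 49.3 CPM in PB pools, and the alpha members to 2.57, 3.61 and 3.07 CPM in control and 3.20, 2.61 and 3.08 CPM in PB pools. The groups overlapped in each cluster. In the control pools the gamma cluster took 86.3% of the counts of all members, the beta cluster 12.9% and the alpha cluster 0.740%. The log2 ratio of the group means was -0.02 for gamma, -0.07 for beta and -0.06 for alpha, which is a description of the sums, with no test. The sign turned for gamma without PB pool 3 (0.019) and for alpha without control pool 2 (0.073) or PB pool 2 (0.026).

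**Figure D1:**
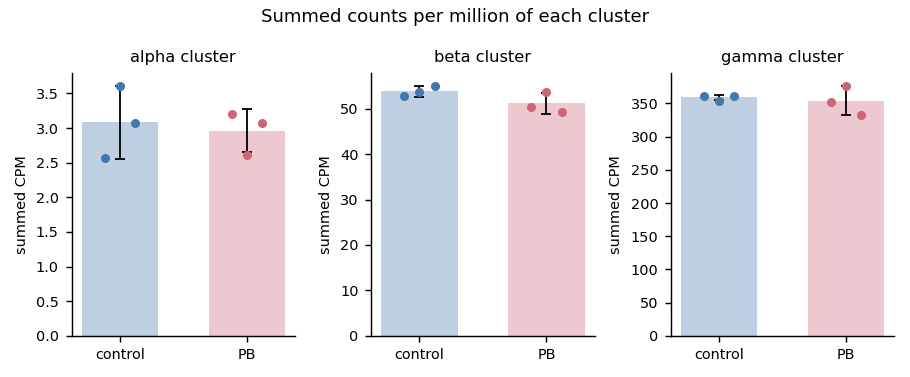
Summed CPM (linear axis from 0) of the alpha, beta and gamma clusters in the control (blue) and PB (red) pools. Points are single pools, bars are means and error bars are SD (n = 3 pools per group). The points of both groups overlap in each panel, and the gamma sum lies above 333 CPM in every pool.

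Within clusters, levels were compared per length, as counts per kb of exon divided by the library size (RPKM, mean over the 6 pools). The median member level was 0.0327 RPKM in the alpha, 0.523 RPKM in the beta and 1.91 RPKM in the gamma cluster. These medians cover all members, including 7 alpha members and 1 beta member that did not pass the filter on low counts. The median over the genes that passed this filter was 5.13 RPKM, so the 2 sides cover unlike sets. The highest member was the C-type gene Pcdhgc3 (chromosome 18, 37806410 to 37841873), with 33.5 RPKM and 44.0% of the gamma counts. This share was 42.2% in the lowest and 45.3% in the highest pool. Pcdhgb6 followed at 6.55 RPKM, with a range of 5.80 to 7.09 RPKM that lay below every Pcdhgc3 value. Pcdhga7 (3.60 RPKM), Pcdhgb7 (3.28 RPKM) and Pcdhga10 (3.11 RPKM) came next, and their ranges over pools overlapped, so that their order was within the spread.

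The 3 gamma C-type members, which lie next to each other at the end of the cluster, differed widely in level. Pcdhgc3 had counts of 16088, 18023 and 14878 in control and 14695, 17442 and 17038 in PB pools. Pcdhgc4, which is known to be required for the survival of neurons, had 1286, 1751 and 1198 counts in control and 1594, 1450 and 1347 in PB pools, or 2.74 RPKM. Pcdhgc5 had 220, 159 and 109 counts in control and 109, 320 and 136 in PB pools, or 0.360 RPKM. The control and PB values overlapped for each of the 3 genes, and the levels of these 3 genes did not overlap with each other in any pool.

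The alpha C-type members were low. Pcdhac1 had 8 counts in control pool 1 and 0 in the other 5 pools. Pcdhac2 had 50, 165 and 50 counts in control and 14, 16 and 39 in PB pools, which is 0.0949 RPKM over all pools. Among the beta genes, Pcdhb17 (2.32 RPKM) and Pcdhb22 (1.90 RPKM) were the highest, and they made 14.5% and 11.1% of the beta counts. Pcdhb1, the member nearest to the alpha cluster, had 3 counts in each of 2 pools and 0 in the other 4.

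**Figure D2:**
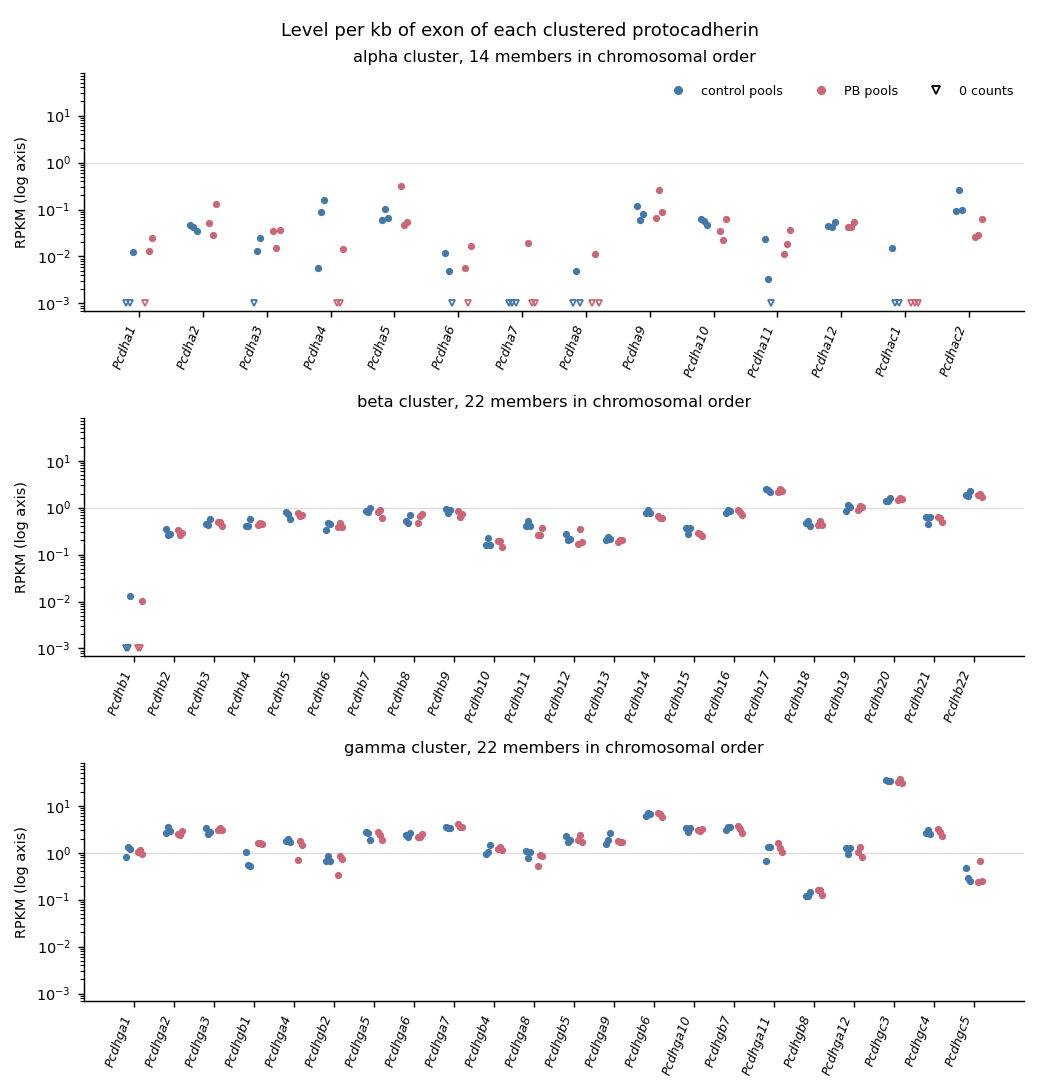
Level of each of the 58 members in chromosomal order, as RPKM on a log axis, in the control (blue) and PB (red) pools. Each point is 1 pool, and open triangles at the lower edge stand for pools with 0 counts. The gamma members lie mostly above 1 RPKM with Pcdhgc3 at 33.5 RPKM, beta members below 2.5 RPKM, and alpha members below 0.4 RPKM.

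A count of 3 or less was taken as the floor of detection, which is 0.0257 to 0.0319 CPM depending on the pool and covers counting error only. All 22 gamma members were above it in every pool, and so were 21 of 22 beta members. In the alpha cluster 8 of 14 members were at or under the floor in at least 1 pool, and 23 of the 84 alpha values were 0. Several alpha members had 1 pool that stood above the rest. Pcdha5 had 164 counts in PB pool 1 and 25 to 61 in the other 5 pools. Pcdha9 had 144 counts in PB pool 2 and 35 to 62 elsewhere, and Pcdha2 had 83 counts in PB pool 3 and 16 to 27 elsewhere. In a control pool the same was seen for Pcdhac2, with 165 counts in control pool 2 and 14 to 50 elsewhere. These high values fell in different pools for different members. The alpha sum was 252 to 421 counts per pool, so that a single member held a large part of it.

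Differences between PB and control were tested on gene sums with edgeR's quasi-likelihood test, with a call requiring both a 2-fold difference and an adjusted p (Benjamini-Hochberg, over 19435 genes) no higher than 0.05. Of the 58 members, 50 passed the filter on low counts (7 alpha, 21 beta and 22 gamma) and 0 were called, against 0.0154% of all genes tested (3 genes). An unadjusted p under 0.05 was found for 4 of the 50 members (8.0%), against 4.46% of all genes. DESeq2, a second count test, called 1 member and gave an unadjusted p under 0.05 for 5 of 58 (the 4 above and Pcdha4), against 0.0536% and 3.65% of all genes. The smallest adjusted p of a member in edgeR was 0.888.

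The PB and control values did not overlap for 4 of the 50 members tested, against 10.7% of all genes. These were the members with an unadjusted p under 0.05. A single member was higher in PB (Pcdhgb1), against 5.1% of all genes without overlap and 2.03% with such a p. The other 3 were lower (Pcdhac2, Pcdhb11 and Pcdhb14), against 5.61% and 2.43%. A log2 fold change below 0 was found for 33 of the 50 members, against 49.3% of all genes, and above 0 for 17, against 50.7%. Without PB pool 3 the members divided into 26 below and 25 above 0. A log2 fold change of less than 0.25 in either direction was found for 38 of the 50, against 76.9% of all genes.

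**Figure D3:**
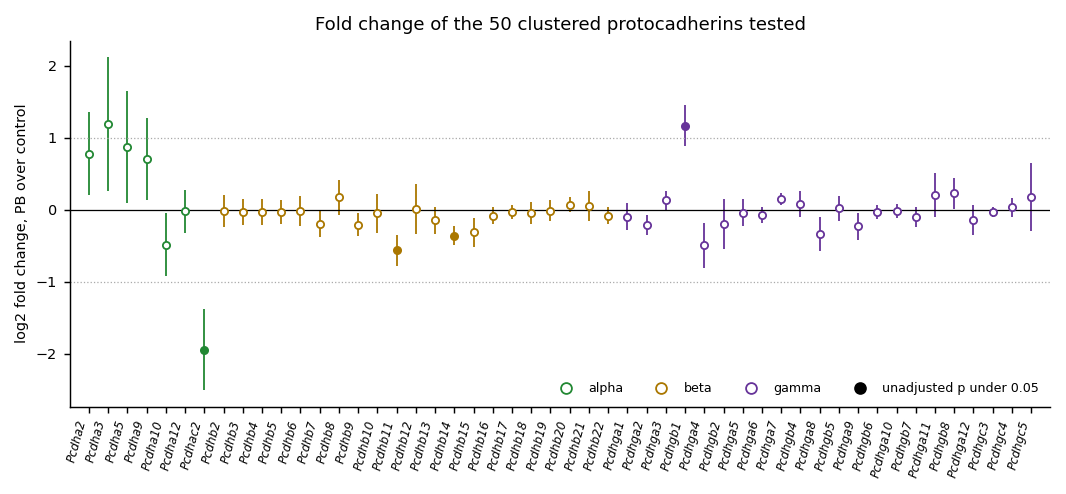
Fitted log2 fold change of PB over control for the 50 members tested, in chromosomal order, with the standard error as bars. Filled points have an unadjusted p under 0.05, and dotted lines mark a fold change of 2. Most beta and gamma members lie near 0, Pcdhgb1 stands at 1.17 and Pcdhac2 at -1.94.

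Pcdhgb1 (chromosome 18, 37680458 to 37841870), a gamma-B member, had the smallest p. Its counts were 469, 283 and 220 in control and 718, 743 and 805 in PB pools. In CPM these were 4.77, 2.43 and 2.34 against 7.24, 7.27 and 6.92, or 3.18 ± 1.38 in control and 7.15 ± 0.191 in PB pools (SD, n = 3). Each PB pool was above each control pool, and control pool 1 stood apart from the other 2 controls. On the log2 scale PB exceeded control by 1.17 (SE 0.28), with an unadjusted p of 0.0051 and an adjusted p of 0.888 in edgeR, and 1.16 with an adjusted p of 0.0223 in DESeq2. Without control pool 1 the log2 fold change was 1.58, with an adjusted p of 0.0591 in edgeR. The same test gave smaller values without control pool 2 (1.002, adjusted p 0.986) and without control pool 3 (0.985, adjusted p 0.947). Without PB pools 1, 2 and 3 in turn, Pcdhgb1 had 1.15, 1.16 and 1.19, with edgeR adjusted p of 0.985, 0.282 and 0.9999. Its share of the gamma counts was 1.32%, 0.685% and 0.646% in control and 2.06%, 1.93% and 2.08% in PB pools.

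Because Pcdhgb1 shares windows with Pcdhgb2, Pcdhgb4 and Pcdhgb8, the 4 members were also summed, a set chosen after the values were seen. The sum, which contains Pcdhgb1, was 12.7, 11.5 and 12.8 CPM in control and 14.9, 17.9 and 16.1 CPM in PB pools, without overlap. Pcdhgb4 and Pcdhgb8 each overlapped between groups. Pcdhgb2 itself had 302, 464 and 293 counts in control and 151, 400 and 398 in PB pools, which overlapped. On the chromosome Pcdhgb1 lies between Pcdhga3 and Pcdhga4. Pcdhga4 had counts of 811, 1059 and 725 in control and 320, 814 and 761 in PB pools, of which PB pool 1 was the lowest, and a log2 fold change of -0.50 (SE 0.31). The sum of Pcdhga3, Pcdhgb1 and Pcdhga4 was 29.1, 23.05 and 22.9 CPM in control and 24.8, 31.0 and 27.7 CPM in PB pools, which overlapped.

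Pcdhac2 (chromosome 18, 37143969 to 37187657) had the lowest log2 fold change of the 50 members tested in edgeR. Its values were 0.509, 1.42 and 0.531 CPM in control and 0.141, 0.157 and 0.335 CPM in PB pools. All PB pools were lower than all control pools, and control pool 2 was the highest of all. Its fitted log2 fold change of -1.94 (SE 0.56) had an unadjusted p of 0.0113 and an adjusted p of 0.888 in edgeR, and an adjusted p of 0.299 in DESeq2. Without control pool 2 the log2 fold change was -1.29, with an unadjusted p of 0.0372 in the same edgeR test across all genes.

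Pcdhb11 had counts of 144, 218 and 137 in control and 92, 98 and 157 in PB pools, and its PB values in CPM lay below the control values in all pools (1.597 ± 0.236 against 1.08 ± 0.236 CPM, SD, n = 3). The fitted log2 difference was -0.56 (SE 0.22), for which edgeR gave an unadjusted p of 0.0387 and an adjusted p of 0.888. Pcdhb14 had counts of 256, 352 and 252 in control and 226, 212 and 246 in PB pools, or 2.77 ± 0.221 against 2.16 ± 0.108 CPM (SD, n = 3). The fitted log2 difference was -0.36 (SE 0.13), for which edgeR gave an unadjusted p of 0.0286 and an adjusted p of 0.888. Without control pool 2 the unadjusted p in edgeR was 0.123 for Pcdhb11 and 0.0908 for Pcdhb14. These beta genes lie apart from each other in the cluster, with Pcdhb12 and Pcdhb13 between them at log2 fold changes of 0.01 and -0.15.

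**Figure D4:**
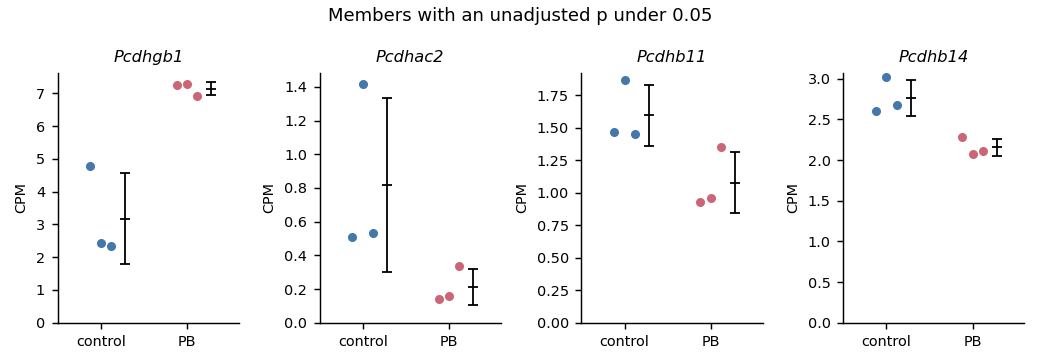
CPM (linear axes from 0) of Pcdhgb1, Pcdhac2, Pcdhb11 and Pcdhb14 in each control (blue) and PB (red) pool, with the mean and SD (n = 3) in black. Pcdhgb1 lies between 2.34 and 4.77 CPM in control and between 6.92 and 7.27 CPM in PB pools, and the other 3 genes have every PB pool below every control pool.

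In the alpha cluster 4 of the 7 members tested had a positive and 3 a negative log2 fold change, with a median of 0.70, against 0.00 over all genes. The largest edgeR values among the 50 members tested were those of Pcdha3 (1.19, SE 0.93), Pcdhgb1 and Pcdha5 (0.87, SE 0.78). Pcdha3 had 0, 8 and 12 counts in control and 18, 8 and 22 in PB pools, which overlapped, and its log2 fold change was 0.62 without control pool 1 and 2.03 without control pool 3. Without PB pool 1 the log2 fold change of Pcdha5 was -0.60, and without PB pool 2 that of Pcdha9 was -0.14, against 0.70 (SE 0.57) with all pools. The alpha median was -0.10 without PB pool 3 (8 members tested) and 0.04 without PB pool 1 (9 members tested), as the filter was run again. The sum of the 13 alpha members other than Pcdhac2 was 2.06, 2.20 and 2.54 CPM in control and 3.06, 2.46 and 2.74 CPM in PB pools, which overlapped. Pcdha4 was not among the members tested in edgeR. It had 3, 55 and 80 counts in control and 0, 0 and 9 in PB pools, which overlapped, and 2 of its PB pools were at 0. It was the fifth member with a DESeq2 unadjusted p under 0.05 (0.0046, adjusted p 0.653). This fit gave it a log2 fold change of -4.10 (SE 1.45), a value that rests on PB counts of 0, 0 and 9.

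The variable exons of Pcdha4, Pcdha6 and Pcdha7 are overlapped by 3 annotated read-through transcripts that join an alpha variable exon to the gamma constant exons. The read-through transcript Gm37013, at Pcdha4, had 40, 0 and 0 counts in control and 31, 73 and 69 in PB pools, and its groups overlapped. Gm38666 and Gm38667 had 0 counts in all 6 pools. With the read-through counts added, the alpha sum was 2.97, 3.61 and 3.07 CPM in control and 3.51, 3.33 and 3.67 CPM in PB pools, which overlapped, and its log2 ratio was 0.12 in place of -0.06. The 2462 bases that Pcdha4 shared with no other member all lay in Gm37013 as well. In the control pools with 0 counts for Gm37013, Pcdha4 had 55 and 80 counts. In the other pools Gm37013 had 31 to 73 counts and Pcdha4 had 0 to 9. How reads were divided between Pcdha4 and Gm37013 was not tested.

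In the beta cluster 17 of 21 members tested had a negative and 4 a positive log2 fold change, with a median of -0.04. Of these, 18 were within 0.25 of 0. Pcdhb17 had 788, 925 and 664 counts in control and 693, 819 and 877 in PB pools, and a fitted difference of -0.03 on the log2 scale (SE 0.10). Pcdhb22 had 556, 639 and 642 counts in control and 569, 608 and 615 in PB pools, and a fitted difference of -0.08 (SE 0.12). The values of both overlapped between groups. The sum of the 15 genes Pcdhb1 to Pcdhb15 was 22.1, 21.7 and 22.9 CPM in control and 20.3, 20.6 and 19.4 CPM in PB pools without overlap, a log2 ratio of -0.15. The sum of the other 7 beta genes overlapped, at 30.7 to 32.1 and 30.0 to 33.1 CPM. This division was chosen after the values were seen and was not tested.

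In the gamma cluster 13 of 22 members had a negative and 9 a positive log2 fold change, with a median of -0.03, which was 0.03 without PB pool 3, and 19 were within 0.25 of 0. The 12 gamma-A members had 9 negative and 3 positive values. Their sum was 117.2, 115.6 and 120.5 CPM in control and 113.0, 115.0 and 111.0 CPM in PB pools, which did not overlap and differed by -0.06 on the log2 scale. The 7 gamma-B members had 3 negative and 4 positive values, and their sum overlapped at 65.2 to 69.5 and 62.8 to 73.8 CPM. Unlike the sum over the cluster, the gamma-A and gamma-B sums depend on how constant exon reads were divided among members. The difference in these sums was not tested. The named gamma members of high level differed little between groups. The log2 fold change was 0.14 (SE 0.08) for Pcdhga7, -0.01 (SE 0.10) for Pcdhga10, -0.03 (SE 0.09) for Pcdhgb6 and -0.10 (SE 0.14) for Pcdhgb7. It was -0.03 (SE 0.07) for Pcdhgc3, 0.03 (SE 0.13) for Pcdhgc4 and 0.18 (SE 0.47) for Pcdhgc5. Each of these 7 members overlapped between groups.

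The spread between pools of a group was described by the coefficient of variation (CV) of CPM. Its median over the members tested was 29.3% in control and 51.5% in PB pools for alpha, 14.8% and 11.7% for beta, and 15.47% and 12.9% for gamma, so that the alpha members varied most and gamma was close to beta. The CV of the gamma sum was 1.18% in control and 6.18% in PB pools, and that of Pcdhgc3, the most abundant member, was 2.92% and 8.68%. The variance between pools was also divided by that of counting alone. This ratio is 1 if counts are independent and increases with the count of a gene. Its median was 12.3 over the alpha, 3.59 over the beta and 26.5 over the gamma members tested, against 9.08 for all genes. In Pcdhb14 this ratio was 1.23, and in Pcdhga4 and Pcdhgc5 it was 53.0 and 49.0. Because the counts derive from the coverage of paired reads, they need not be independent, and this was not tested. How the division of constant exon reads bears on the spread of the gamma members was not tested.

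**Figure D5:**
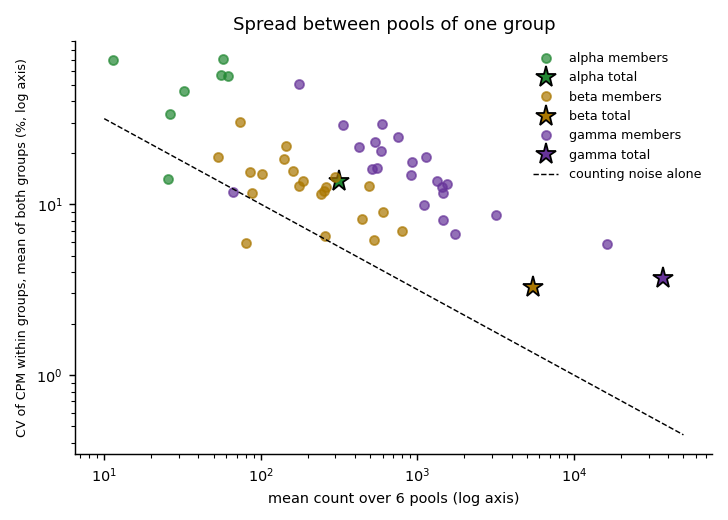
Coefficient of variation (CV) of CPM between pools, as the mean of the control and PB groups, against the mean count over 6 pools (both axes log) for the 50 members tested (circles) and the 3 cluster sums (stars). The dashed line is the CV of counting noise alone if counts are independent. The gamma members lie further above the line than most beta members, and each sum has a smaller CV than most members of its cluster.

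Each member has a single transcript, so the transcript counts hold the same values as the gene sums, but the fit then runs over all transcripts. Of the members' transcripts 0 were called, against 0.0332% of 51227 transcripts tested (17 transcripts), and Pcdhac2 and Pcdhgb1 had an unadjusted p under 0.05 (0.0301 and 0.0195 in edgeR across all transcripts), against 3.56% of all. DESeq2 on transcripts, which called 1.84% of 63489, gave an adjusted p of 0.129 for Pcdhgb1 and of 0.174 for Pcdhac2.

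Genes that act on the choice of protocadherin promoters differed little. Of 29 such genes, 18 had a positive and 11 a negative log2 fold change, 0 were called by edgeR and 2 had an unadjusted p under 0.05, and the largest difference was 0.17 on the log2 scale. Ctcf, which encodes the factor that binds protocadherin promoters and enhancers, had 110.1 ± 6.35 CPM in control and 113.7 ± 8.75 CPM in PB pools (SD, n = 3). Nipbl, the cohesin loader, had a log2 fold change of 0.17 (SE 0.07) and an unadjusted p of 0.0364 in edgeR. Trim28, Dnmt3a and Smc3, which had the highest mean CPM over all pools in this list, stood at -0.07, 0.11 and 0.08.

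Of the 11 genes between and beside the clusters, 3 had a positive and 8 a negative log2 fold change, 0 were called and 1 had an unadjusted p under 0.05. This was Dnd1, a germ cell gene upstream of the alpha cluster, with 10.1 ± 2.01 CPM in control and 6.87 ± 1.47 CPM in PB pools (SD, n = 3) and a log2 fold change of -0.55 (SE 0.20), whose values overlapped. Taf7 and Slc25a2, which lie between the beta and gamma clusters, had log2 fold changes of 0.03 and 0.32. Diaph1 and Hdac3, beyond the gamma cluster, had -0.07 and -0.0047, and Zmat2, next to the alpha cluster, had -0.05.

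Other cadherin genes and partner genes were counted in the same way. Of 12 non-clustered protocadherins, 6 had a positive and 6 a negative log2 fold change, and Pcdh15 alone had an unadjusted p under 0.05, with 0.496 ± 0.0749 CPM in the control and 0.743 ± 0.119 CPM in the PB pools (SD, n = 3). Pcdh18 was the highest of them, at 200.03 ± 6.23 and 200.7 ± 12.5 CPM. Of 8 atypical cadherins (Fat, Dchs and Celsr genes) 2 had a positive and 6 a negative value, and 0 had a p under 0.05. Of 16 classical cadherins and catenins 9 had a positive and 7 a negative value, and Cdh3 alone had a p under 0.05, with a log2 fold change of 0.20 (SE 0.08). Of 25 genes for intracellular partners and proteases of protocadherins, such as Ptk2, Rac1 and Adam10, 16 had a positive and 9 a negative value, and 0 had a p under 0.05. None of the genes in these lists was called by edgeR or by DESeq2.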

How the data were processed

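Per the study's methods, the authors aligned paired-end reads of 100 bases to mm10 with HISAT2 2.1.0, assembled them with StringTie 1.3.5 on the RefSeq annotation, merged the assemblies and deposited whole-number read counts per transcript, which are derived from transcript coverage. The authors' DESeq2 1.30.0 columns (fold change, standard error and p-values) and 6 normalized per-sample columns were not used. The counts of 114412 transcripts were summed by gene name. The 1493 transcripts without a name, which held 3.05% to 4.49% of the counts, were left out of the gene sums.

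Gene sums were fitted with edgeR 4.0.16 (R 4.3.3) with TMM normalization, the default expression filter (minimum count 10, total 15), the quasi-likelihood F-test and Benjamini-Hochberg adjustment over all genes tested. Standard errors are the log2 fold change divided by the square root of F. CPM used TMM library sizes. Cluster sums, medians and counts of members are descriptions. DESeq2 1.42.0, other normalizations and filters, known transcripts only, a replicate block and leaving out each pool were alternatives. The main edgeR fit of gene sums was tested on simulated counts, and the other fits were not. The members and lists were chosen with earlier results of these data known. Members are named if they are C-type, the 2 highest per length in their group, have an unadjusted p under 0.05 in either fit, or are among the 3 highest or lowest log2 fold changes. Other named members were chosen after their values were seen. In the other lists, the genes named are those with such a p, the most abundant, and the neighbours of the clusters. Ctcf and Ptk2 are named outside this rule. The values of 1 gene of the promoter choice list are not reported here. Dchs2 and Relch were not in the gene table, and Zfp143 stands under its mouse symbol. The floor of 3 counts was a fixed value, the same for every pool, with total counts of 97165644 to 125985399 per pool. Groups follow the treatment given in the sample labels. The series design describes each library, the controls included, as that of an exposed mouse with a number that controls and PB pools share, and whether this number pairs them is not given in the sources used here.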

Additional observations from a re-analysis of the deposited data

How the results depend on the processing

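No member was called by edgeR under any alternative normalization, filter or set of pools, and DESeq2 called 1 (Pcdhgb1, log2 fold change 1.16). Genes called numbered 3, against 11 with DESeq2, 8 with known transcripts only and 3 to 9 when a pool was left out. Transcripts called numbered 17, against 1169 with DESeq2 and 0 to 19 without a pool. Members with an unadjusted p under 0.05 numbered 4, against 2 to 6 without a pool, and 2 without control pool 2. The alpha median of 0.70 (7 members) was 0.34 with the stricter filter (6 members). Without a pool it was -0.10 to 0.66 (8 or 9 members), and the beta median of -0.04 was -0.12 to -0.020. The filter was run again each time, so these alpha medians cover different members. The alpha log2 ratio of -0.06 was 0.28 without Pcdhac2 and 0.12 with read-through transcripts added, both alternatives added after the data were seen. It was -0.17 to 0.073 without a pool, the gamma ratio -0.070 to 0.019 and the gamma median -0.081 to 0.029, which also changed sign. Alpha and gamma share a StringTie locus, so that alternative gave no alpha value. The cause of these differences was not tested.

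Of 203 alternative values for 17 named members, 186 kept their direction and side of the threshold, 16 in 10 members changed sign and 1 passed the threshold. The sign changes arose on leaving out a pool. The range without a pool was -0.11 to 0.0054 for Pcdhgc3, -0.084 to 0.15 for Pcdhgc4 (also -0.016), -0.48 to 0.51 for Pcdhgc5 (also -0.0091), -0.14 to 1.03 for Pcdha9, -0.60 to 1.28 for Pcdha5, -0.092 to 0.015 for Pcdhb17 (also 0.0021), -0.14 to 0.017 for Pcdhb22, -0.098 to 0.032 for Pcdhga10 (also 0.026 and 0.024), -0.10 to 0.045 for Pcdhgb6 (also 0.0056) and -0.23 to 0.011 for Pcdhgb7.

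With the replicate number as a block, genes called numbered 0, transcripts called 0 and members with a p under 0.05 numbered 2, and the alpha median was 0.33. Deviations of same-numbered pools correlated at 0.093, 0.15 and -0.018. The main fit had no block and treated the pools as unpaired, although the series design gives control and PB pools shared mouse numbers. Deviations from the mean of 3 pools sum to 0 in each group, so these correlations cannot decide whether the pools are paired. Control pool 2 correlated best with its own number, control pool 1 about equally with PB pools 1 and 3 (0.093 and 0.096), and control pool 3 best with PB pool 2. With 3 pools a group, standard errors of 0.07 to 0.93 on the log2 scale set what could be detected.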
